A study of Homo sapiens with 11 samples.

Results

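The 10 microRNAs (miRNAs) described here come from the upstream end of the imprinted 14q32 region, between MEG3 and the large miR-379 to miR-410 cluster. They are hsa-miR-493-5p, hsa-miR-493-3p, hsa-miR-337-3p, hsa-miR-665, hsa-miR-431-5p, hsa-miR-433-3p, hsa-miR-127-3p, hsa-miR-432-5p, hsa-miR-136-5p and hsa-miR-370-3p. They were chosen by name and position, with earlier results of these data known. All 10 were found among the 2576 mature miRNAs of the count tables of both experiments.

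Small RNA was sequenced from SH-SY5Y, a human neuroblastoma cell line derived from SK-N-SH. All cells, controls included, were differentiated with all-trans retinoic acid (ATRA) for 7 days. In the co-treatment experiment, hydrogen peroxide (H2O2) at 10 µM was given together with ATRA for the 7 days (3 control and 3 H2O2 libraries). In the pre-treatment experiment, 10 µM H2O2 was given for 72 h, removed, and followed by ATRA (2 control and 3 H2O2 libraries). The authors removed 1 outlying sample of the series, which was not analysed here. Controls received ATRA without H2O2. A tumour line differentiated in culture is a limited model of a neuron, and all libraries come from this 1 line. The study calls its replicates biological but names no separate cultures, so p-values measure the spread between these libraries.

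The DLK1-DIO3 region is imprinted, which means that its genes are read from only one parental chromosome. The paternal copy gives protein-coding RNAs such as RTL1, a gene derived from a retrotransposon that is needed in the placenta. The maternal copy gives the long non-coding RNAs MEG3 and MEG8 and the miRNAs. Several of these miRNAs are made from the strand opposite RTL1, so they are fully complementary to the RTL1 mRNA and can direct its cleavage. The region is active in the brain and the placenta. A mature miRNA recognises most other targets through its seed, the bases at positions 2 to 8.

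The mature sequences are shown because the seed sets which RNAs each miRNA can pair with, and because the base composition bears on the values reported here. They are taken from RefSeq (GRCh38.p14 table), run 5′ to 3′, and the capitals mark the seed.

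hsa-miR-493-5p: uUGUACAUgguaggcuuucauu
hsa-miR-493-3p: uGAAGGUCuacugugugccagg
hsa-miR-337-3p: cUCCUAUAugaugccuuucuuc
hsa-miR-665: aCCAGGAGgcugaggccccu
hsa-miR-431-5p: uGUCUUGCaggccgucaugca
hsa-miR-433-3p: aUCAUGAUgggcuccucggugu
hsa-miR-127-3p: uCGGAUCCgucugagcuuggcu
hsa-miR-432-5p: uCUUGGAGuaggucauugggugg
hsa-miR-136-5p: aCUCCAUUuguuuugaugaugga
hsa-miR-370-3p: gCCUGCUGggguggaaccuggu

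The 10 seeds are all different, so the members form no seed family among themselves. Of the 2262 miRNAs of the count tables with a RefSeq mature sequence, 0 others carried the seed of a member. Each mature sequence matched chromosome 14 of GRCh37 (hg19, the build the authors aligned to) once, on the plus strand. The members come from 9 hairpins that span 42154 bases, from 101335397 to 101377550. The hairpins of miR-431, miR-433, miR-127, miR-432 and miR-136 lie opposite RTL1, a minus-strand gene annotated from 101346090 to 101370059, and the 5 mature members they give lie whole inside its coding exon. miR-127-3p lies at 101349372 to 101349393 and miR-432-5p at 101350833 to 101350855. miR-370-3p, at 101377523 to 101377544, lies outside RTL1, in an intron of MEG8. The hairpins of miR-493, miR-337 and miR-665 lie in neither MEG3, RTL1 nor MEG8 as annotated.

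**Figure D1:**
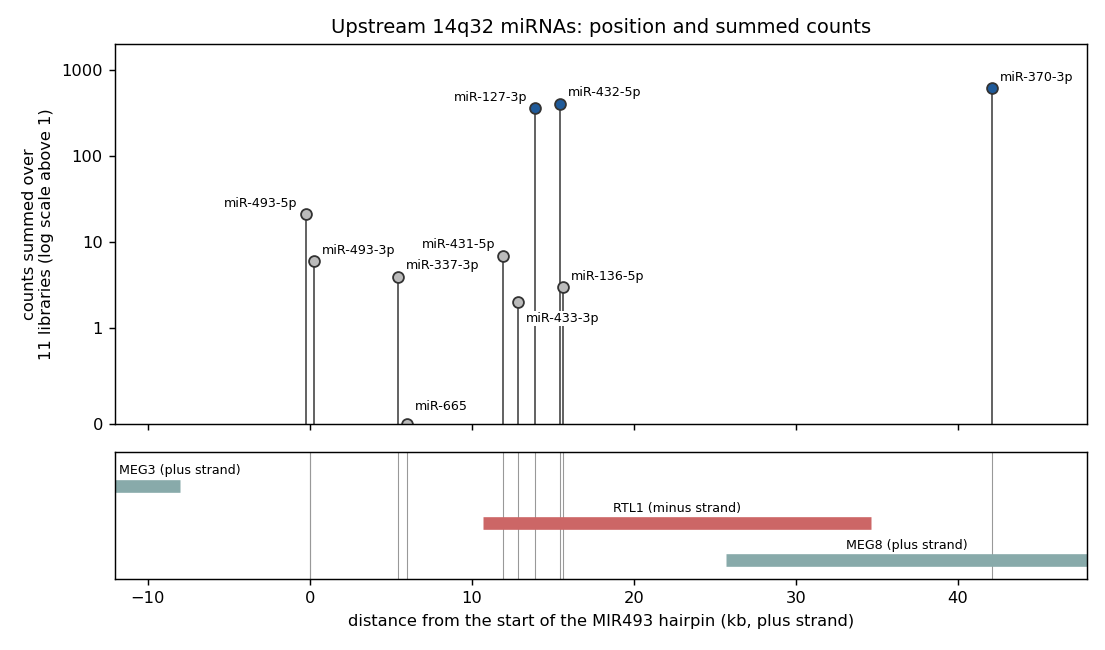
Position of the 10 miRNAs in kb from the start of the MIR493 hairpin (x axis) against their counts summed over the 11 libraries (y axis, log scale above 1). Blue points mark miR-127-3p (357 counts), miR-432-5p (406) and miR-370-3p (617), and grey points mark the members at 21 counts or fewer. Bars give the extent of RTL1 and of those parts of MEG3 and MEG8 that lie in the window, and both arms of miR-493, which share a hairpin, are drawn slightly apart.

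The libraries held 5343953 to 8927582 counts each (median 7425640). The detection limit was set at 3 counts, which is 0.336 to 0.561 CPM (counts divided by the library's total, then scaled up) depending on the library and covers counting error only. The neuronal or neuroendocrine marker list was detected in 6 of 6 miRNAs, but its sum was mostly miR-137. Among its defining members, 2 were low, with miR-9-5p at 14 to 46 counts and miR-124-3p at 0 to 7. The list summed to 30871 to 38182 CPM in co-treatment controls and 15844 to 19356 with H2O2, and to 12561 to 20652 in pre-treatment controls and 29270 to 35366 with H2O2. The pre-treatment controls stood apart from each other, with a Pearson correlation of log2 CPM across miRNAs of 0.949, against 0.993 to 0.995 among the pre-treatment H2O2 libraries. Control 1 of pre-treatment held 540 counts of miR-223-3p (white blood cell list) and 1007 of miR-205-5p (epithelial list), against at most 35 and 32 in any other library. The summed CPM of the white blood cell list was 12.9 and 121 in the pre-treatment controls and 10.5 to 23.3 elsewhere. That of the epithelial list was 53.9 and 209 against 69.6 to 84.4. Pre-treatment control 1 held 178 counts of miR-200c-3p, 79 of miR-141-3p and 184 of miR-203a, each within the range of the other libraries. Its epithelial sum was thus high through miR-205-5p. miR-122-5p, the liver marker, was at 135 to 278 CPM in co-treatment controls and 230 to 548 with H2O2, and at 99.3 to 235 in pre-treatment controls and 547 to 786 with H2O2. The red blood cell list summed to 4.15 to 7.95 CPM in co-treatment controls and 6.55 to 10.1 with H2O2. In pre-treatment it summed to 2.16 and 3.43 CPM in the controls and 10.4 to 14.5 with H2O2, without overlap. This came from miR-451a (6 and 6 counts against 43, 49 and 49) and miR-144-5p (1 and 10 against 28, 42 and 55). The listed miR-486-5p had 8 and 8 counts against 6, 10 and 3, and miR-144-3p had 0 and 1 against 10, 4 and 0. The muscle list, with miR-133a-3p at 0, summed to 6.05 to 6.36 CPM in co-treatment controls and 3.93 to 6.06 with H2O2. In pre-treatment it summed to 1.59 and 3.84 CPM in the controls and 6.19 to 6.62 with H2O2, also without overlap. The mesenchymal list summed to 15134 to 17320 CPM in co-treatment controls and 10252 to 14790 with H2O2, without overlap, and to 10500 to 17876 in pre-treatment controls and 13110 to 15720 with H2O2. The part of these differences in the results was not tested. The pre-treatment fold changes of the 3 tested members are therefore given with and without each control, and other pre-treatment values with both.

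Most of the upstream miRNAs were at or near the detection limit in these cells. miR-665 had 0 counts in all 11 libraries, which allows at most 3 counts in any of them. miR-433-3p had 2 counts in 1 library, replicate 2 of pre-treatment with H2O2. miR-136-5p had 1 count in each of 3 libraries. miR-337-3p was counted 3 times in control 2 of pre-treatment and once in replicate 2 of co-treatment with H2O2. miR-493-3p reached 6 counts over all libraries and at most 2 in any one. These 5 members never passed 3 counts, so no difference between groups was detectable for them at this depth.

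miR-431-5p passed the limit in 1 library and miR-493-5p in 3. miR-431-5p had 5 counts in replicate 1 of co-treatment with H2O2 and at most 1 in every other library. miR-493-5p had 0 counts in the 3 co-treatment controls, and 0, 3 and 2 with H2O2. In pre-treatment it had 1 and 4 counts in the controls, and 4, 3 and 4 with H2O2. Its 21 counts left 4 libraries at 0 and no library above 4, and a difference between its groups was not detectable at this depth.

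miR-127-3p, miR-432-5p and miR-370-3p were the 3 members that passed the filter for testing, in both experiments. To be tested, a miRNA had to exceed the CPM that 5 counts give in the smallest library. At least 3 libraries had to do so in co-treatment, which left 790 miRNAs, and at least 2 in pre-treatment, which left 868. By counts summed over the 11 libraries, miR-370-3p ranked 434, miR-432-5p 492 and miR-127-3p 511 among the 2576 miRNAs. The 3 mature sequences are 22 or 23 bases long, so their counts are comparable per length. RNA was taken from whole cultures, so fewer cells that express a miRNA and less of it per cell cannot be told apart.

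**Figure D2:**
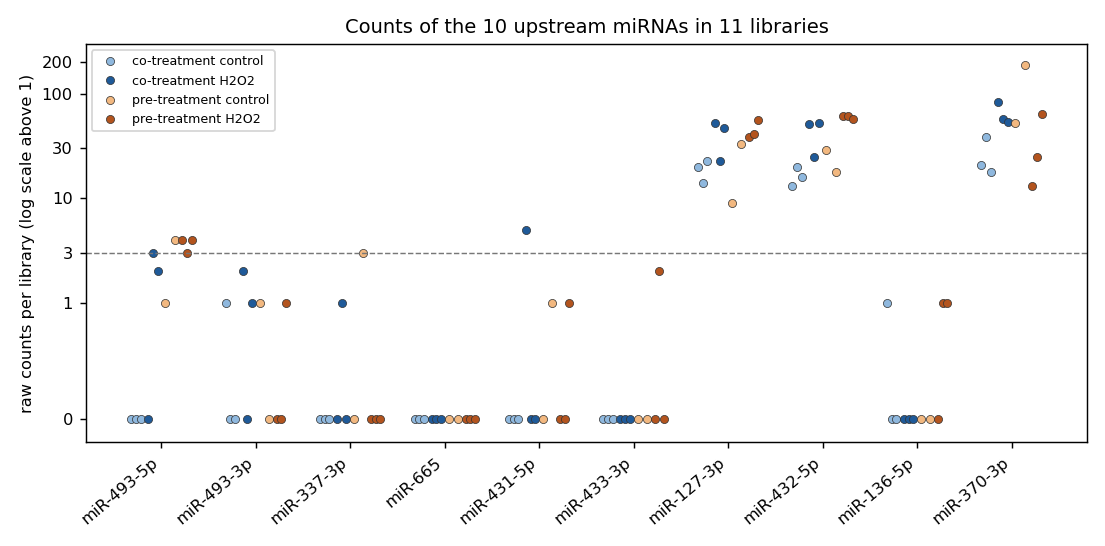
Raw counts of the 10 miRNAs in each library (y axis, log scale above 1), with miRNAs in genomic order and points coloured by group. The dashed line marks the limit of 3 counts, which miR-127-3p, miR-432-5p and miR-370-3p passed in all 11 libraries, miR-493-5p in 3 and miR-431-5p in 1.

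miR-432-5p, made from the strand opposite RTL1, was higher with H2O2 in both experiments, and its groups did not overlap in either. In co-treatment the 3 controls had 13, 20 and 16 counts and the 3 H2O2 libraries 51, 25 and 53. After TMM scaling, which sets the libraries of an experiment to a common level, these were 2.06, 2.67 and 2.21 CPM against 5.82, 4.23 and 7.03 CPM. The lowest H2O2 library lay above the highest control. The means were 2.32 ± 0.317 CPM (SD, n = 3) and 5.70 ± 1.40 CPM (SD, n = 3). The log2 fold change (log2FC) of H2O2 against control was 1.30 (SE 0.38), a 2.46-fold rise, with an adjusted p of 0.00978 in edgeR's exact test (Benjamini-Hochberg over 790 miRNAs). Values with an adjusted p under 0.05 and a log2FC beyond ± 0.6 are termed calls, and this was one. The call was lost without H2O2 replicate 1 (edgeR adjusted p = 0.0520) or without H2O2 replicate 3 (edgeR adjusted p = 0.108).

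The pre-treatment controls held 29 and 18 counts of miR-432-5p, and the H2O2 libraries 62, 62 and 57, or 3.89 and 2.74 CPM against 7.25, 8.40 and 7.56 CPM. The 3 H2O2 libraries lay close together and well above both controls. The means were 3.32 ± 0.812 CPM (SD, n = 2) and 7.74 ± 0.596 CPM (SD, n = 3). The log2FC was 1.21 (SE 0.37), with an adjusted p of 0.0653 in edgeR's exact test (0.0114 unadjusted), so it was not called. Without control 1 the log2FC was 1.56, and without control 2 it was 0.99. Those fits assume that the lone control varies like the H2O2 libraries.

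miR-127-3p, whose hairpin neighbours that of miR-432 opposite RTL1, was higher with H2O2 on average in both experiments, and neither difference was called. The co-treatment controls had 20, 14 and 23 counts and the H2O2 libraries 52, 23 and 47, or 3.17, 1.87 and 3.18 CPM against 5.94, 3.90 and 6.24 CPM. The groups did not overlap on the CPM scale, with means of 5.36 ± 1.27 CPM (SD, n = 3) with H2O2 and 2.74 ± 0.754 CPM (SD, n = 3) in the controls. The log2FC was 0.98 (SE 0.39), with an adjusted p of 0.0658 in edgeR's exact test. Without H2O2 replicate 2 it was called, at 1.15 (edgeR adjusted p = 0.0323).

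The pre-treatment controls held 9 and 33 counts of miR-127-3p, and the H2O2 libraries 39, 41 and 56, or 1.21 and 5.03 CPM against 4.56, 5.56 and 7.43 CPM. Control 2 lay within the range of the H2O2 libraries and control 1 far under it, with means of 5.85 ± 1.46 CPM (SD, n = 3) with H2O2 and 3.12 ± 2.70 CPM (SD, n = 2) in the controls. The exact 95% Poisson intervals of the control counts, 4.12 to 17.1 and 22.7 to 46.3, did not meet, so the controls differed by more than counting error. The log2FC was 0.91 (SE 0.61), with an adjusted p of 0.424 in edgeR's exact test. It was 0.28 without control 1 and 2.26 without control 2, so the value rested on which control was used.

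miR-370-3p, the member in the MEG8 intron, was higher with H2O2 in co-treatment and lower on average in pre-treatment. The co-treatment controls had 21, 39 and 18 counts and the H2O2 libraries 84, 58 and 54, or 3.33, 5.21 and 2.49 CPM against 9.59, 9.83 and 7.16 CPM. All 3 H2O2 libraries lay above all 3 controls, with means of 8.86 ± 1.47 CPM (SD, n = 3) and 3.68 ± 1.39 CPM (SD, n = 3). The log2FC was 1.26 (SE 0.36), a 2.39-fold rise, with an adjusted p of 0.00797 in edgeR's exact test. The call was lost without H2O2 replicate 1, at 1.20 (edgeR adjusted p = 0.0566).

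The pre-treatment controls held 52 and 189 counts of miR-370-3p, and the H2O2 libraries 13, 25 and 64, or 6.98 and 28.8 CPM against 1.52, 3.39 and 8.49 CPM. The highest H2O2 library lay above the lower control, so the groups overlapped around means of 4.47 ± 3.61 CPM (SD, n = 3) with H2O2 and 17.9 ± 15.4 CPM (SD, n = 2) in the controls. The exact 95% Poisson intervals of the control counts were 38.8 to 68.2 and 163 to 218, and those of the lowest and highest H2O2 libraries were 6.92 to 22.2 and 49.3 to 81.7. Libraries within each group thus differed by more than counting error. The log2FC was −2.0 (SE 0.80), with an adjusted p of 0.0872 in edgeR's exact test, and it was not called. It was −0.65 without control 2 and −2.63 without control 1.

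**Figure D3:**
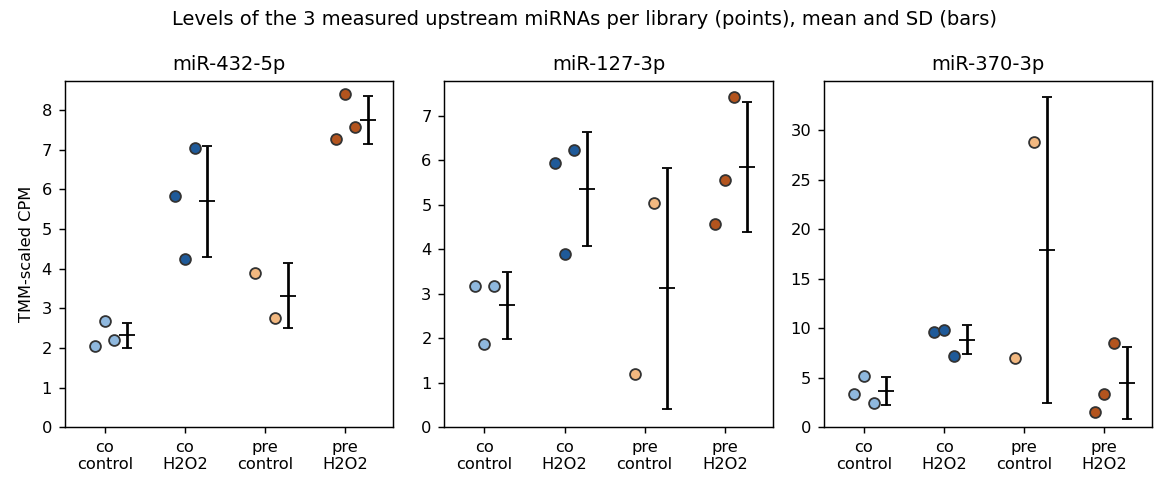
TMM-scaled CPM (y axis, linear, from 0) of miR-432-5p, miR-127-3p and miR-370-3p in each library, as points by group, with the mean and SD beside them. The groups of miR-432-5p separate in both experiments, while the pre-treatment controls of miR-127-3p (1.21 and 5.03 CPM) and miR-370-3p (6.98 and 28.8 CPM) lie far apart.

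In co-treatment 2 of the 3 tested members were called, both raised, against 26.2% of all tested miRNAs called and 10.6% called as raised. All 3 were higher with H2O2 without overlap of the groups, against 19.5% of all tested miRNAs. The median log2FC of the 3 was 1.26, beside −0.04 over all 790. In pre-treatment 0 of the 3 were called in edgeR's exact test, against 15.3% of all tested miRNAs. The count was also 0 with the quasi-likelihood test (1.96% of all tested miRNAs called) and with DESeq2 (15.6% called). In the exact test an unadjusted p under 0.05 was seen for 2 of them, against 28.6% of all tested miRNAs. miR-432-5p was the 1 member higher with H2O2 without overlap, against 23.3% of all tested miRNAs. Calls from fits with 1 control left out are not set against these shares, because such fits rest on a lone control. The median log2FC of the 3 was 0.91, in a range of −2.0 to 1.21, beside −0.19 over all 868. These counts cover the members that passed the filter and say nothing of the other 7.

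Whether a miRNA responded differently in the 2 experiments was tested in 1 fit of all 11 libraries with edgeR's quasi-likelihood test, over 764 miRNAs. Experiment and any batch between the experiments cannot be told apart in this design. The response of miR-370-3p was lower in pre-treatment than in co-treatment by a log2FC difference of −3.46 (SE 0.83), with an adjusted p of 0.00846. Such a difference in this direction was found for 20.2% of all tested miRNAs, and a difference in either direction for 32.1%. It passed the test without each of the 11 libraries in turn, with differences of −4.32 to −2.09 and edgeR adjusted p-values of 0.000734 to 0.0275. The difference was −0.26 (SE 0.66) for miR-127-3p and −0.39 (SE 0.51) for miR-432-5p, with adjusted p-values of 0.778 and 0.560 in the same edgeR fit. Both standard errors were larger than the values, so a difference for these miRNAs was not detectable here.

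The mean response over both experiments was then taken from the same fit, a summary chosen after the values of each experiment had been seen. For miR-432-5p it was 1.24 (SE 0.26), with an edgeR adjusted p of 0.0150, and it was called as raised, as were 2.09% of the 764 miRNAs. H2O2 was higher without overlap in both experiments for 1.70% of these miRNAs, of which miR-432-5p was one of 13. Left-out libraries gave a mean response of 1.14 to 1.48, and the call was lost without H2O2 replicate 3 of co-treatment (edgeR adjusted p = 0.0508). It was also lost with the replicate number as a block (1.26, edgeR adjusted p = 0.133). For miR-127-3p the mean response was 0.98 (SE 0.34), with an edgeR adjusted p of 0.116, and for miR-370-3p it was −0.32 (SE 0.42), with an edgeR adjusted p of 0.716.

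The share of each miRNA in the summed raw counts of the 3 does not depend on library scaling. This measure was also chosen after the data had been seen. miR-370-3p made up 38.9%, 53.4% and 31.6% of the sum in the co-treatment controls and 44.9%, 54.7% and 35.1% with H2O2. These groups overlapped, and their means of 41.3% ± 11.1 (SD, n = 3) and 44.9% ± 9.83 (SD, n = 3) were compared in a two-sided exact permutation test, which gave p = 0.7 (0.1 is the smallest possible).

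In pre-treatment miR-370-3p made up 57.8% (95% Clopper-Pearson interval 46.9 to 68.1) and 78.8% (73.0 to 83.7) in the controls. With H2O2 it made up 11.4% (6.21 to 18.7), 19.5% (13.1 to 27.5) and 36.2% (29.1 to 43.7). Every interval of an H2O2 library lay under both control intervals, which cover counting error only. The two-sided exact permutation test gave p = 0.2, the smallest value that 2 against 3 libraries allow, so the design could not reach 0.05. The share of miR-127-3p was 10.0% and 13.8% in these controls and 34.2%, 32% and 31.6% with H2O2, also without overlap (exact permutation p = 0.2). The share of miR-432-5p was 32.2% and 7.50% in the controls and 54.4%, 48.4% and 32.2% with H2O2, where the groups touched (exact permutation p = 0.4).

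**Figure D4:**
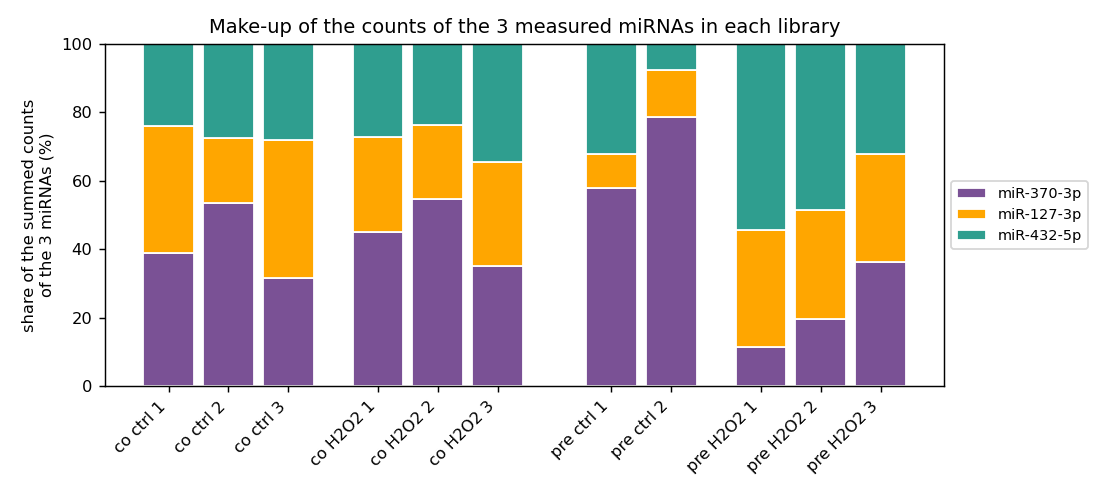
Share of miR-370-3p, miR-127-3p and miR-432-5p in their summed raw counts (y axis, %) in each of the 11 libraries, as stacked bars. The share of miR-370-3p was 57.8% and 78.8% in the pre-treatment controls and 11.4% to 36.2% with H2O2, while the co-treatment groups overlapped.

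The opposite arms of the same hairpins gave few counts. miR-370-5p had 3 to 18 counts per library (84 in all), and its log2FC in co-treatment was 0.37 (SE 0.68) and that in pre-treatment −0.56 (SE 0.68), with adjusted p-values of 0.761 and 0.675 in edgeR's exact test. The log2 ratio of miR-370-5p to miR-370-3p (pseudocount 0.5) differed by −1.05 between H2O2 and control in co-treatment and by 1.41 in pre-treatment. The two-sided exact permutation test gave p = 0.4 in both, where the smallest possible values of 0.1 and 0.2 could not reach 0.05.

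For miR-136 the arm not among the 10 was the more abundant one, with 60 counts of miR-136-3p against 3 of miR-136-5p. miR-136-3p was tested in pre-treatment, where its log2FC was 1.99 (SE 1.22) with an adjusted p of 0.353 in edgeR's exact test. miR-127-5p had 10 counts in all, and miR-337-5p, miR-431-3p, miR-433-5p, miR-432-3p and miR-770-5p had 0 in every library. Of these 8 further upstream miRNAs, 1 was tested in co-treatment and 2 in pre-treatment, and 0 were called in edgeR's exact test, in the quasi-likelihood test or at an unadjusted p under 0.05.

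miR-493 is the hairpin with both arms among the 10. Its 5p and 3p arms had 5 and 4 counts over the 6 co-treatment libraries and 16 and 2 over the 5 pre-treatment libraries. The mean log2 ratio of 5p to 3p (pseudocount 0.5) was higher with H2O2 by 0.94 in each experiment. The two-sided exact permutation test gave p = 0.7 in co-treatment (smallest possible 0.1) and p = 0.8 in pre-treatment (smallest possible 0.2). With so few counts the balance of the arms could not be resolved.

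The miR-379 to miR-410 cluster lies further along the same strand, with its first hairpin at 101488366. Of its 73 listed mature miRNAs, 36 were tested in co-treatment, and 1 was raised and 9 were lowered, against 10.6% raised and 15.6% lowered over all tested miRNAs. Their median log2FC was −0.48, beside 1.26 for the 3 upstream members and −0.04 over all tested miRNAs. The median share of G and C bases (GC content) was 45.5% for the tested cluster miRNAs and 59.1% for the 3 members. The part of GC content in this contrast was not tested. In pre-treatment 34 cluster miRNAs were tested, and 0 were raised and 8 were lowered in edgeR's exact test, against 5.41% and 9.91% over all tested miRNAs. Their median was −0.68, beside 0.91 for the upstream members and −0.19 over all tested miRNAs. The upstream values ranged from −2.0 for miR-370-3p to 1.21 for miR-432-5p, and 0 of these members were called. The cluster was far more abundant, at 348 to 1005 CPM per library, than the 10 upstream members together, at 7.39 to 34.0 CPM. The summed CPM of the 10 was 7.39 to 9.68 in co-treatment controls and 20.6 to 21.7 with H2O2. In pre-treatment it was 13.3 and 34.0 in the controls and 14.1 to 24.4 with H2O2, where the groups overlapped.

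Base composition moved with the fold changes of all miRNAs. In co-treatment the median log2FC was −0.86 for 131 tested miRNAs under 40% GC and 0.44 for 374 at 50% or more. In pre-treatment the order was reversed, with 0.59 for 134 and −0.67 for 428. The 3 measured members are on the GC-rich side, at 52.2% for miR-432-5p, 59.1% for miR-127-3p and 68.2% for miR-370-3p.

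The trend on GC content was removed in each library within a quasi-likelihood fit, an alternative chosen after the data had been seen. In co-treatment miR-370-3p went from 1.26 to 0.63 (SE 0.38) and lost its call (edgeR adjusted p = 0.320). miR-432-5p went from 1.29 to 1.20 (SE 0.43), and lost its call as well (edgeR adjusted p = 0.0687), and miR-127-3p from 0.97 to 0.65 (SE 0.43). In pre-treatment the values hardly moved, with 1.22 (SE 0.34) for miR-432-5p, 1.08 (SE 0.71) for miR-127-3p and −2.02 (SE 1.06) for miR-370-3p. The difference of miR-370-3p between the experiments was not fitted with this trend removed. Over the tested miRNAs with a mature sequence (700 in co-treatment and 768 in pre-treatment) the correction took the calls from 153 to 53 and from 12 to 6.

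**Figure D5:**
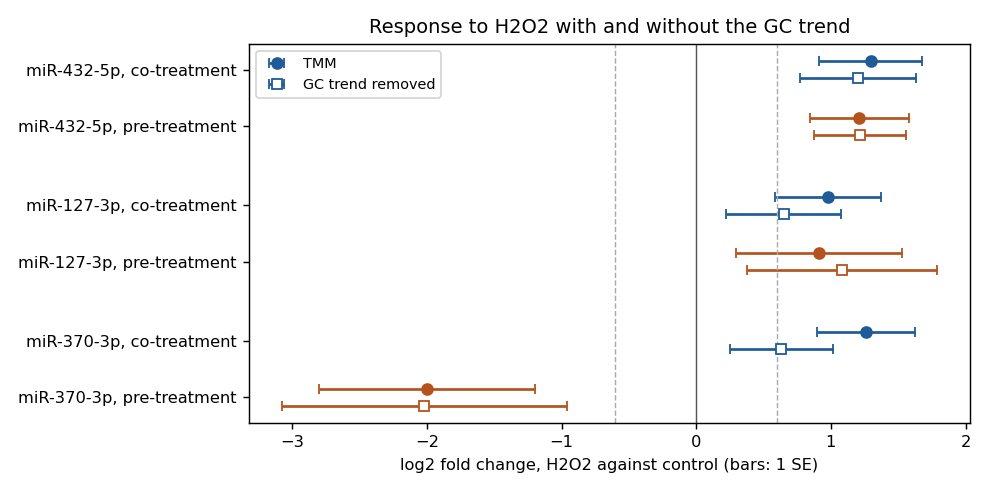
Log2 fold change of H2O2 against control (x axis, bars 1 SE) of the 3 tested members in each experiment, with TMM scaling (filled) and with the GC trend removed (open); dashed lines mark ± 0.6. The co-treatment value of miR-370-3p fell from 1.26 to 0.63, while that of miR-432-5p stayed between 1.20 and 1.30.

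The miRNAs outside the 14q32 lists nearest to the mean profile of the 3 members were miR-873-3p, miR-27a-5p and miR-2277-5p. Their root mean square differences from it, in log2 CPM centred on each miRNA's mean over the 11 libraries, were 0.346, 0.352 and 0.388, against a median of 0.781 over 389 candidates with a mean of at least 10 CPM. The members differed from their own mean by 0.443 for miR-127-3p, 0.557 for miR-432-5p and 0.791 for miR-370-3p. Each member is part of this mean and the candidates are not, so the values of members and candidates are not on an equal footing.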

How the data were processed

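The deposited values are raw counts per mature miRNA, which the authors made with HTSeq 0.7.2 from reads trimmed by cutadapt 2.10 and placed on hg19 by Bowtie2 2.4.1. The submitters' processing notes also name FastQC 0.11.8 and edgeR 3.6.1. Whether molecular identifiers were used in counting, and the miRBase release, are not given in the sources used here. The authors' deposited tables of fold changes and p-values were not used.

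Samples were grouped by their labels. The members, lists and tests were chosen with earlier results of these data known. Within each experiment, H2O2 and control libraries were compared by the edgeR 4.0.16 exact test (R 4.3.3, TMM scaling, Benjamini-Hochberg over all tested miRNAs), after the study's methods. The number of libraries in the filter was set here. Standard errors come from edgeR's quasi-likelihood test. All 10 members are named, with the other arms of their hairpins and the 3 miRNAs nearest in profile with a mean CPM of at least 10.

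Alternatives were the quasi-likelihood test, DESeq2 1.42.0, other scalings and filters, no log2FC threshold, a replicate block, 1 joint fit, a GC correction (lowess span 0.5) and each library left out. The GC fit at the reported filter, the mean response of both experiments, the shares and the arm ratios other than miR-493 were added after seeing the data. Mature sequences were found for 88.6% of tested miRNAs in co-treatment and 88.5% in pre-treatment. The fits were tested on simulated data. No replicates were duplicates of each other.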

Additional observations from a re-analysis of the deposited data

Results flagged for a closer look

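The response of miR-370-3p to H2O2 differed between the experiments by the test of the difference itself, at −3.46 on the log2 scale (pre-treatment minus co-treatment, edgeR quasi-likelihood interaction, adjusted p = 0.00846). Other scalings, no filter and a replicate block gave −4.24 to −3.17, with edgeR adjusted p-values of 0.00253 to 0.0159. It was higher with H2O2 in 3 of 3 co-treatment libraries than in every control, and in pre-treatment the groups overlapped. The experiments were separate, so a batch between them cannot be told apart from the regimen. Left-out libraries gave differences of −4.32 to −2.09, the smallest without pre-treatment control 2. miR-370-3p is 68.2% GC, and its difference between the experiments was not fitted with the GC trend removed.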

How the results depend on the processing

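In co-treatment 2 members were called. In quasi-likelihood fits the count was 2 without a block, 1 with the replicate number as a block, 1 in a joint fit of both experiments, and 0 with the GC trend removed, with or without the block. Under the block miR-432-5p had a log2FC of 1.27 (edgeR adjusted p = 0.0698), and in the joint fit miR-370-3p had 1.41 (edgeR adjusted p = 0.110). Left-out libraries gave 0 to 3 members. In pre-treatment, where 0 were called by the exact and the quasi-likelihood test, the block and the joint fit each called 1, miR-370-3p, at −2.66 (edgeR adjusted p = 0.0208) and −2.05 (edgeR adjusted p = 0.0293), and left-out libraries gave 0 to 2. Same-numbered control and H2O2 libraries had correlations of deviations of −0.20 to 0.27, and differently numbered ones −0.27 to 0.27. With 2 controls the pre-treatment correlations mirror each other in sign, so they cannot decide on pairing. The numbers were not taken to pair samples.

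Of all miRNAs, 207 were called in co-treatment. The quasi-likelihood test called 181, 111 with the block and 90 in the joint fit. Among miRNAs at a mean CPM of at least 10 with a mature sequence it called 126, which fell to 46 with the GC trend removed and 8 with the block as well. At the reported filter with a mature sequence the counts were 153, 53 and 1. In pre-treatment the exact test called 133, and 61 without a filter. The quasi-likelihood test called 17, and 15 with the block. In the same order as for co-treatment, it called 52, 39 and 0 in the abundant subset and 12, 6 and 0 at the reported filter. Left-out libraries gave 110 to 279 in co-treatment and 8 to 460 in pre-treatment. The cause of these changes was not tested. The planned GC fit held no member.

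The difference between experiments reversed for miR-127-3p without a filter (0.041) and ranged from −0.87 to 1.10 over left-out libraries, positive without pre-treatment control 2. For miR-432-5p it ranged from −0.56 to 0.073, positive without control 1. The mean response of miR-370-3p ranged from −0.75 to 0.31, positive without control 2. With every library required to pass the filter, miR-127-3p was called in co-treatment (1.17, edgeR adjusted p = 0.0202). The miR-493 arm ratio ranged from −0.26 to 2.30 in co-treatment and from −0.65 to 2.52 in pre-treatment over left-out libraries. Library size scaling moved the share of raised calls from 40.6% to 50.5% in co-treatment and the median of all miRNAs by 0.0945. Members of 9 to 189 counts per library limit the precision of every fold change here.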
